A study of Rattus norvegicus with 10 samples.

Results

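The neurotrophins and their receptors were taken as 6 listed genes, Bdnf, Ntf3, Ntf4, Ntrk2, Ntrk3 and Ngfr, of the 32883 genes counted in rat primary cortical cultures. The counts are listed by Ensembl identifier without names, and names could be paired through the readable rows of the study's table of differentially expressed genes, which hold upregulated genes. Through these rows 1 of the 6 genes was found, Ntf4 (ENSRNOG00000020783), and the other 5, among them Bdnf and every listed receptor, were not analysed here.

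The way the name was found limits what can be tested. Ntf4 stands in the rows of genes upregulated with trichostatin A (TSA), so its higher level with TSA was a condition of being named, and the TSA values are given as a description. It also stands in the rows for sodium butyrate (NaB), but the TSA rows alone would have named it. For genes named through the TSA rows, tests therefore rest on the NaB experiment, which shares no library with the TSA experiment. The spread in the fit was taken over all 4 groups, TSA libraries included. Ntf4 itself had enough reads to be tested in its treated libraries alone, so its NaB values are a description as well.

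The cultures were made from the cortex of newborn Wistar rats, grown for 14 days and left with the drug in the medium until collection, and they hold glia as well as neurons. The TSA experiment has 3 libraries from cultures given 100 nM TSA for 19 h and 3 from untreated cultures, and the NaB experiment has 2 from cultures given the drug for 24 h and 2 from untreated cultures. For NaB the study's text states 5 mM and the sample labels 5 µM. Each treated culture was grown on the same plate as its time-matched control, and drug, incubation time and experiment changed together. Defining markers of neurons, astrocytes, oligodendrocytes and microglia could not be paired with identifiers, so the labelled cell type was not checked here. In bulk RNA, fewer cells of a type and less RNA per cell cannot be told apart.

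TSA and NaB inhibit histone deacetylases, the enzymes that take acetyl groups off histones. Neurotrophins are secreted as precursors, are cut to mature dimers and bind Trk receptor tyrosine kinases, BDNF and NT4 (the product of Ntf4) TrkB, and NT3 mainly TrkC, while the product of Ngfr binds all of them and, with sortilin, their uncut forms. Cortical neurons are known mainly for BDNF and TrkB, and NT4 is the ligand of the family that is known for low levels in the brain.

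Ntf4 was hardly read in untreated cultures and was read in every treated one. It had 0, 0 and 1 reads in the 3 control libraries for TSA and 28, 19 and 27 reads with TSA, normalized counts of 0, 0 and 1.07 against 26.3, 17.2 and 26.2. In the NaB experiment it had 2 and 0 reads in the controls and 21 and 12 with NaB, normalized counts of 2.07 and 0 against 19.9 and 11.6. The lowest treated library of either experiment lay above the highest control library of both. A library held 26070908 to 27649249 recovered reads, so a gene with fewer than about 3 reads, or a CPM of 0.109 to 0.115, could not be told from 0 in it.

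The mean normalized count of Ntf4 was 0.360 ± 0.616 (SD, n = 3) in the controls and 23.2 ± 5.23 (SD, n = 3) with TSA, a ratio of 66.0 whose 95% counting interval ran from 11.5 to 2640, since it rests on a single control read. With NaB the mean was 15.7 ± 5.85 (SD, n = 2) against 1.04 ± 1.46 (SD, n = 2), a ratio of 15.2 (counting interval 3.87 to 130). These intervals are exact and cover counting error alone. Differences between groups were tested with limma on log2(normalized count + 1), a scale that understates the change of low genes, with Benjamini-Hochberg adjustment over the 15717 genes that passed the filter on low counts. A call needed an adjusted p under 0.05 and a change of 0.5 or more on that scale in either direction, and 42.3% of tested genes were called with TSA and 41.5% with NaB. Ntf4 passed that filter through its treated groups. Its log2 fold change was 4.22 (standard error, SE, 0.53) with TSA and 3.21 (SE 0.65) with NaB, both given as a description. The NaB value was 4.02 without the first control library for NaB and 2.40 without the second. Of all tested genes, 0.827% had a larger log2 fold change than Ntf4 with TSA, and 2.2% with NaB.

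The promoter of Ntf4 is shown because a gene with 0 to 2 reads per control library was read in all treated ones. The 250 bases before its RefSeq start lie at chr1:105029785-105030034 on the plus strand of the GRCr8 build, while the reads had been counted on Rnor_6.0, and no position was carried between the builds. Capitals mark matches to the GC box GGGCGG on either strand.
Ntf4: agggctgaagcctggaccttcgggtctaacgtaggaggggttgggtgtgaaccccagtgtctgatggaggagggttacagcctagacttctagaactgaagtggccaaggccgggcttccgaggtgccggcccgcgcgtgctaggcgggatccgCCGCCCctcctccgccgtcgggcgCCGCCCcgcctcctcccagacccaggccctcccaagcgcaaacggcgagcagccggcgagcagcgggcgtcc
The stretch holds 24 CG dinucleotides and 69.6% G and C, against medians of 5 and 51.2% over the 33469 RefSeq promoters of the same length, and 10.9% of these had as many CG dinucleotides. It holds 2 GC boxes, both on the minus strand. At least 1 GC box was found in 30.5% of all promoters and at least 2 in 14.8%. The other motifs searched on both strands gave no match, namely the CRE TGACGTCA (in 1.59% of all promoters), the TATA box TATAAA (12.9%), the E-box CANNTG (65.5%), the Egr site GCGTGGGCG (0.478%) and the AP-1 site TGANTCA (6.34%). No match says only that these letters are not in this window.

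The gene next to Ntf4 was looked at after the values of Ntf4 had been seen. Of the 4 nearest protein-coding neighbours in the RefSeq table, 1 could be paired with an identifier. This was Kcna7, a voltage-gated potassium channel gene, which had normalized counts of 17.9, 11.3 and 14.9 in the controls and 79.7, 63.3 and 75.8 with TSA, and 15.53 and 11.5 against 72.8 and 76.2 with NaB. Its treated libraries lay above all controls, with a log2 change for NaB of 2.39 (SE 0.29, adjusted p = 8.86e-05, limma) and for TSA of 2.25 (SE 0.24). Kcna7 had been named through the TSA rows, where 87.3% of genes were called higher with NaB. It was added after its own values were seen, so its p is not free of that choice. In the RefSeq table no protein-coding gene overlaps Ntf4, but the strand setting of the counting is not given in the sources used here.

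**Figure D1:**
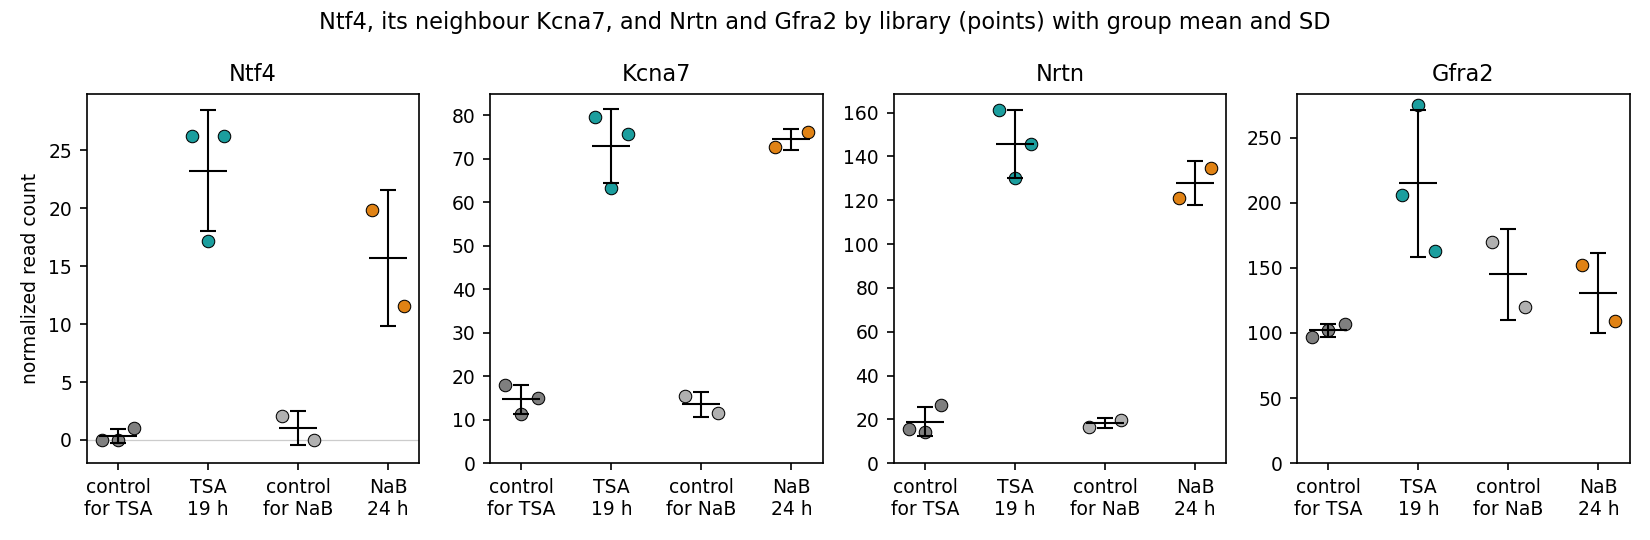
Normalized read counts (vertical axes, linear, a scale for each gene) of Ntf4, its neighbour Kcna7, and the GDNF family genes Nrtn and Gfra2 in the 10 libraries, in the groups control for TSA, TSA 19 h, control for NaB and NaB 24 h; points are libraries, wide bars group means and whiskers SD (n = 3, 3, 2 and 2). Ntf4 lay near 0 in all controls and at 11.6 to 26.3 with either drug, while Gfra2 with NaB overlapped its controls.

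The mean of Ntf4 was higher with TSA than with NaB, and the ranges of both drugs overlapped (17.2 to 26.3 and 11.6 to 19.9). Whether the drugs differed was tested by subtracting the TSA change from the NaB change, for which 0.299% of all tested genes were called. The difference was -1.02 for Ntf4 (95% interval -2.87 to 0.83) and did not pass (adjusted p = 0.662, limma), nor with the replicate block (adjusted p = 0.502). It was -0.21 without the first control library for NaB and -1.83 without the second. Since the name came from genes high with TSA, this difference is not free of that choice. Ntf4 also passed the filter through its treated groups alone, and its control groups held 1 read (TSA) and 2 reads (NaB). The comparison therefore cannot decide whether the drugs differed for Ntf4, and it is given as a description.

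The controls of the experiments were set side by side as the level in the controls for NaB minus that in the controls for TSA, for which 1.55% of tested genes were called. The difference for Ntf4 was 0.46 on the log2 scale (95% interval -0.85 to 1.77) and was not called (adjusted p = 0.708, limma). Without the first control library for NaB, which held both of the reads of its group, it was -0.35. Ntf4 passed the filter through its treated groups alone, and each control library held 0 to 2 reads. The comparison therefore could not decide whether the controls differed, and it is given as a description.

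The counts of called genes give the background for these changes. With NaB, 21.2% of all tested genes were called higher, and with TSA 22.5%, or 25% and 29.7% where libraries were scaled by their totals. Genes named through the TSA rows are another population, since 87.3% of the 1753 that were tested were called higher with NaB, at a median log2 fold change of 1.80. Ntf4 was thus called with NaB among genes most of which were called. Every NaB library lay above every control library in 40.2% of all tested genes and in 95.9% of those named through the TSA rows, as it did for Ntf4. For TSA every treated library lay above every control library in 33.1% of all tested genes. Scaling by library totals moved the median change over all tested genes (log2) from 0.02 to 0.20 with TSA and to 0.13 with NaB, and the share of calls that were higher from 53.3% to 68.3% with TSA. With library totals the log2 change of Ntf4 was 4.34 with TSA and 3.28 with NaB.

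The pathway around the family was taken from 7 lists of 177 genes in all, of which 16 could be paired with an identifier. None of the 25 partners of the Ngfr product could. Since only upregulated genes carry names here, the counts within the lists say nothing of how the pathway moved as a whole, and they are given to account for the genes. All 16 passed the filter, Mmp9 and Gfra3 through their treated groups alone, 15 of them had been named through the TSA rows, and 14 of these 15 were called higher with NaB, at a median log2 fold change of 2.40. That share stands beside the 87.3% of all genes named in this way.

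Among 20 genes that cut, sort or release neurotrophins, 4 could be paired. All 4 had been named through the TSA rows, where 87.3% of genes were called higher with NaB (21.2% of all tested genes), and all 4 were called, which is no result about the list. Mmp9, a matrix metalloproteinase that can cut proneurotrophins outside the cell, had normalized counts of 1.05, 9.27 and 1.07 in the controls and 52.5, 52.5 and 23.3 with TSA. It had 6.21 and 4.18 without NaB and 67.1 and 51.1 with it, a log2 change of 3.29 (SE 0.73). The groups did not overlap in either experiment. No control library of Mmp9 reached the filter's minimum CPM of 0.371, so it passed through its treated groups alone and is given as a description. Pcsk5, a proprotein convertase, had log2 fold changes of 1.15 with TSA and 0.93 with NaB (adjusted p = 0.00210, limma). Cadps2, which acts in the release of dense-core vesicles that carry BDNF and NT3, had 1.25 with TSA and 1.32 with NaB (adjusted p = 0.0114, limma). Serpini1 encodes neuroserpin, an inhibitor of tissue plasminogen activator, and had mean normalized counts of 4589 ± 1269 (SD, n = 2) in the controls and 13406 ± 403 (SD, n = 2) with NaB, a log2 change of 1.57 (adjusted p = 3.49e-04, limma). The call of Cadps2 was lost without the second NaB library (log2 change 1.11). Cadps2 was added after its values were seen, so its p is not free of that choice.

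Of the signalling genes downstream of Trk receptors, 1 of 33 adaptors and modulators and 2 of 33 members of kinase cascades could be paired. Plcg2, a phospholipase C of the gamma class, whose sister enzyme binds activated Trk receptors, had normalized counts of 10.55, 24.7 and 20.3 in the controls and 891, 763 and 802 with TSA. With NaB it had 736 and 857 against 22.8 and 18.8, a log2 change of 5.20 (SE 0.32, adjusted p = 3.35e-06, limma). It was the largest change among the pathway genes that could be paired. Prkcd, a protein kinase C that diacylglycerol activates, had log2 fold changes of 3.11 with TSA and 3.36 with NaB (adjusted p = 4.77e-05, limma). Rps6ka1, a ribosomal S6 kinase that ERK activates, had 2.46 with TSA and 2.64 with NaB (adjusted p = 1.00e-05, limma). All treated libraries of these 3 genes lay above their controls, as did all NaB libraries in 95.9% of genes named through the TSA rows.

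Of 19 genes known to respond to neurotrophins or activity, 4 could be paired. The immediate early gene Fosb had normalized counts of 225, 223 and 277 with TSA against 40.1, 55.6 and 32.0, and 209 and 132 with NaB against 36.2 and 26.1 (log2 fold change 2.40, adjusted p = 1.15e-04, limma). Egr2 and Junb, immediate early transcription factors as well, were spread widely within the NaB group. Egr2 had 1402 and 564 with NaB against 118 and 106 (log2 fold change 2.98, adjusted p = 1.78e-04, limma). That change was 2.32 without the first NaB library and 3.63 without the second. Junb, which was named through the NaB rows alone, had 3569 and 1363 with NaB against 665 and 560, and for it the TSA libraries gave the test. There it had 1628, 1219 and 1972 against 972, 876 and 830, without overlap, a log2 change of 0.82 (SE 0.29, adjusted p = 0.0305, limma) that 5 of 22 alternatives no longer called. Those were the fit without the filter on low counts (adjusted p = 0.0542) and the fits without the second (0.064) or last (0.0809) control library or the first (0.0759) or last (0.111) TSA library. Junb was added after its values were seen, so its p is not free of that choice. Plaur, the urokinase receptor, had a log2 change with NaB of 2.15 (adjusted p = 2.97e-04, limma). Of 24 genes that act on Bdnf transcription, Nfatc4, a calcineurin-dependent factor, could be paired, and it had 12.4 and 4.18 without NaB and 82.2 and 65.6 with it. Its log2 change was 1.90 for TSA and 3.16 for NaB (adjusted p = 6.77e-04, limma), the latter from 2.47 to 3.85 with 1 library left out, lowest without the second control library and highest without the first.

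Other neurotrophic systems were listed for comparison, and 4 of 24 genes could be paired, 3 of them from the GDNF family. Nrtn, the gene of the ligand neurturin, had normalized counts of 15.8, 14.4 and 26.7 in the controls and 161, 130 and 146 with TSA, and 16.6 and 19.8 against 121 and 135 with NaB. Its treated and control libraries did not overlap, with a log2 change of 2.75 (SE 0.30, adjusted p = 4.23e-05, limma) with NaB. All 4 paired genes here had been named through the TSA rows, where 87.3% of genes were called higher with NaB. Every NaB library lay above every control library in 95.9% of genes named in that way. Gfra2, which encodes the coreceptor that neurturin binds, behaved otherwise. It had 206, 275 and 163 with TSA against 97.0, 102 and 107, a log2 change of 1.04 (SE 0.22), and 152 and 109 with NaB against 170 and 120. The NaB and control libraries overlapped, and the log2 fold change of -0.15 (95% interval -0.74 to 0.44, adjusted p = 0.662, limma) did not pass. The difference of the changes of Gfra2, NaB minus TSA, was -1.19 (95% interval -1.94 to -0.43). Without a block it was not called (adjusted p = 0.207, limma), and with the replicate block it was (adjusted p = 0.043). With all controls as 1 group the difference was -0.70 and was not called. Gfra2 was named because it was high with TSA and was picked after its values were seen, so neither p is free of that choice and the difference is given as a description.

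Gfra3, which encodes the artemin coreceptor, had 1, 3 and 0 reads in the controls for TSA and 14, 15 and 11 with TSA, and 1 and 3 reads against 11 and 11 with NaB. Its log2 fold change with NaB was 1.99 (SE 0.66). Gfra3 too passed the filter through its treated groups alone, so this change is given as a description. With all libraries limma called it, but DESeq2 did not (adjusted p = 0.0668). The limma call was lost without the first control library for NaB (log2 fold change 1.48) or either NaB library (2.00 and 1.97). Igf1r, the receptor of insulin-like growth factor, rose from 371 ± 20.6 to 652 ± 65.2 (SD, n = 2 each) with NaB (log2 fold change 0.81, adjusted p = 0.00284, limma). Its log2 fold change with TSA was 1.17.

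**Figure D2:**
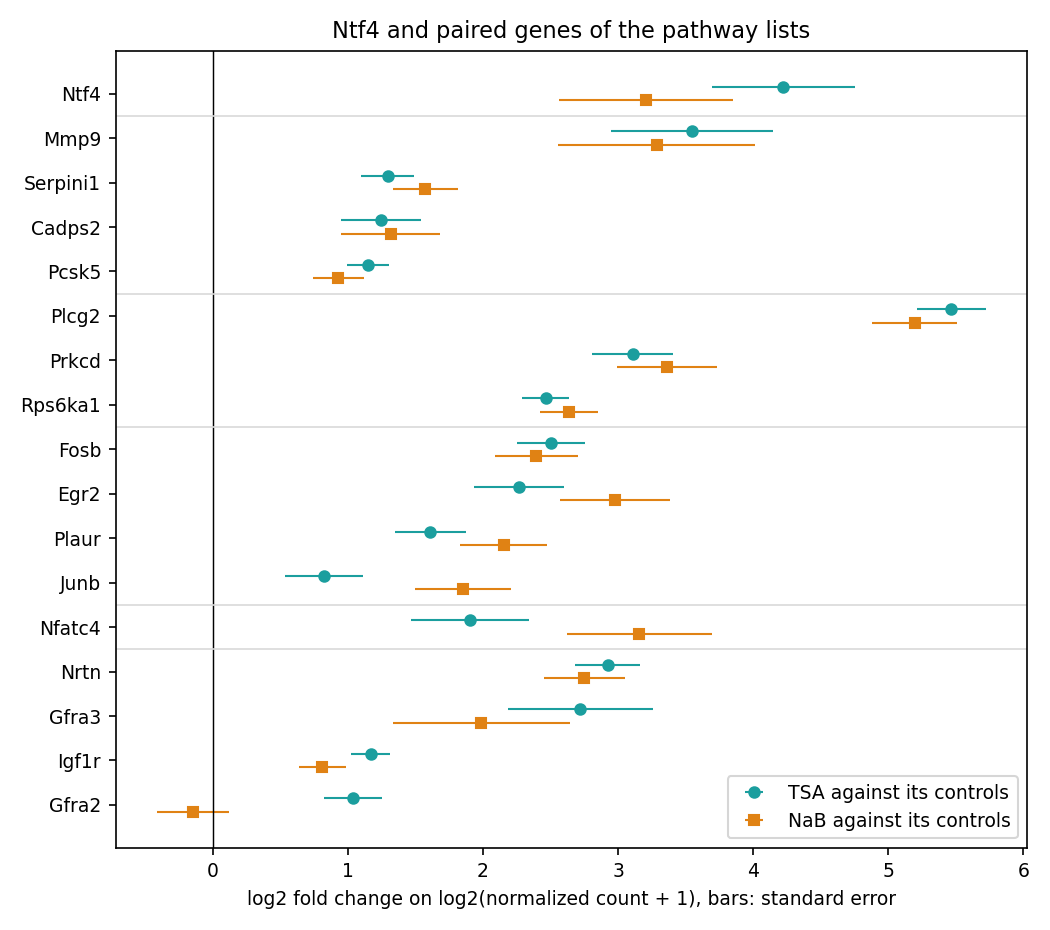
Log2 fold changes (horizontal axis, on log2(normalized count + 1)) of Ntf4 and the 16 pathway genes, with TSA (circles) and NaB (squares) against their own controls, with bars for the standard error. All circles lie right of 0, and all names came from upregulated genes; with NaB, Gfra2 at -0.15 lies left of 0 and Ntf4 at 3.21 has one of the wider bars.

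The pattern of Ntf4 over the 10 libraries was most like that of Galnt9 (Pearson's r = 0.994), Klf14 (r = 0.992) and Sgpp2 (r = 0.990) among 1827 tested genes with a symbol. Galnt9 encodes an enzyme of mucin-type glycosylation, Klf14 a Krüppel-like transcription factor and Sgpp2 a sphingosine phosphate phosphatase. The points share libraries and the split into treated and control cultures, and 10.1% of all tested genes had r of at least 0.9 with Ntf4, so the likeness is a description. Galnt9 had normalized counts of 357 to 568 in the controls and 1248 to 2013 with either drug, without overlap.

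Of 48 markers of the cell types that such cultures could hold, 5 could be paired, all through upregulated rows. Of the 7 markers of endothelium and pericytes, 3 could be paired. All 3 had been named through the TSA rows, where 87.3% of genes were called higher with NaB, and all 3 were called, which is no result about these markers. Flt1 and Rgs5 would not have passed the filter on their control libraries. Flt1, a receptor of vascular endothelial growth factor, had 74.7 to 109 normalized counts in the treated libraries and 1.03 to 5.18 in the controls. Kdr had a log2 change with NaB of 1.27 (adjusted p = 0.0195, limma). This call was lost without the first control library for NaB (log2 change 0.75) or either NaB library (1.18 and 1.37). The markers were added after their values were seen, so the p of Kdr and those of the markers below are not free of that choice. Rgs5 had a log2 change with NaB of 2.59, given as a description since it passed the filter through its treated groups alone. The part of these 3 markers in the change of Ntf4 was not tested. Pvalb, the 1 paired marker of GABA neurons, was named through the TSA rows and had 11.2, 11.8 and 14.6 with TSA against 3.16, 7.21 and 1.07 (log2 change 1.70, or 0.88 with all controls as 1 group), given as a description. It had 33.1 and 45.3 with NaB against 20.7 and 12.5 and did not pass (log2 fold change 1.21, adjusted p = 0.0984, limma), though 7 of 21 alternatives called it. Of the 6 listed markers of GABA neurons, Pvalb alone could be paired, because it was upregulated. The study reports Gad1, Gad2 and Vip as lower with the inhibitors, so Pvalb does not stand for that list.

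Col1a1, the 1 paired marker of fibroblasts, set a library apart among the controls for TSA. Its normalized count was 909 and 1379 in the first and last control libraries for TSA but 47.4 in the second, 149 and 137 in those of the NaB experiment and 696 to 961 in the treated libraries. Without that second library, the log2 fold change of Ntf4 with TSA was 4.05, against 4.22 with it. For Col1a1 the log2 fold change with TSA was 1.00 and did not pass (adjusted p = 0.381, limma), and without that library it turned to -0.51 and passed (adjusted p = 0.0283). That library was picked by its own Col1a1 value, so the p without it is not free of that choice. The value without it is a description and is no result of a fall with TSA. Col1a1 was named through the NaB rows alone, so its log2 change of 2.68 with NaB is a description.

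**Figure D3:**
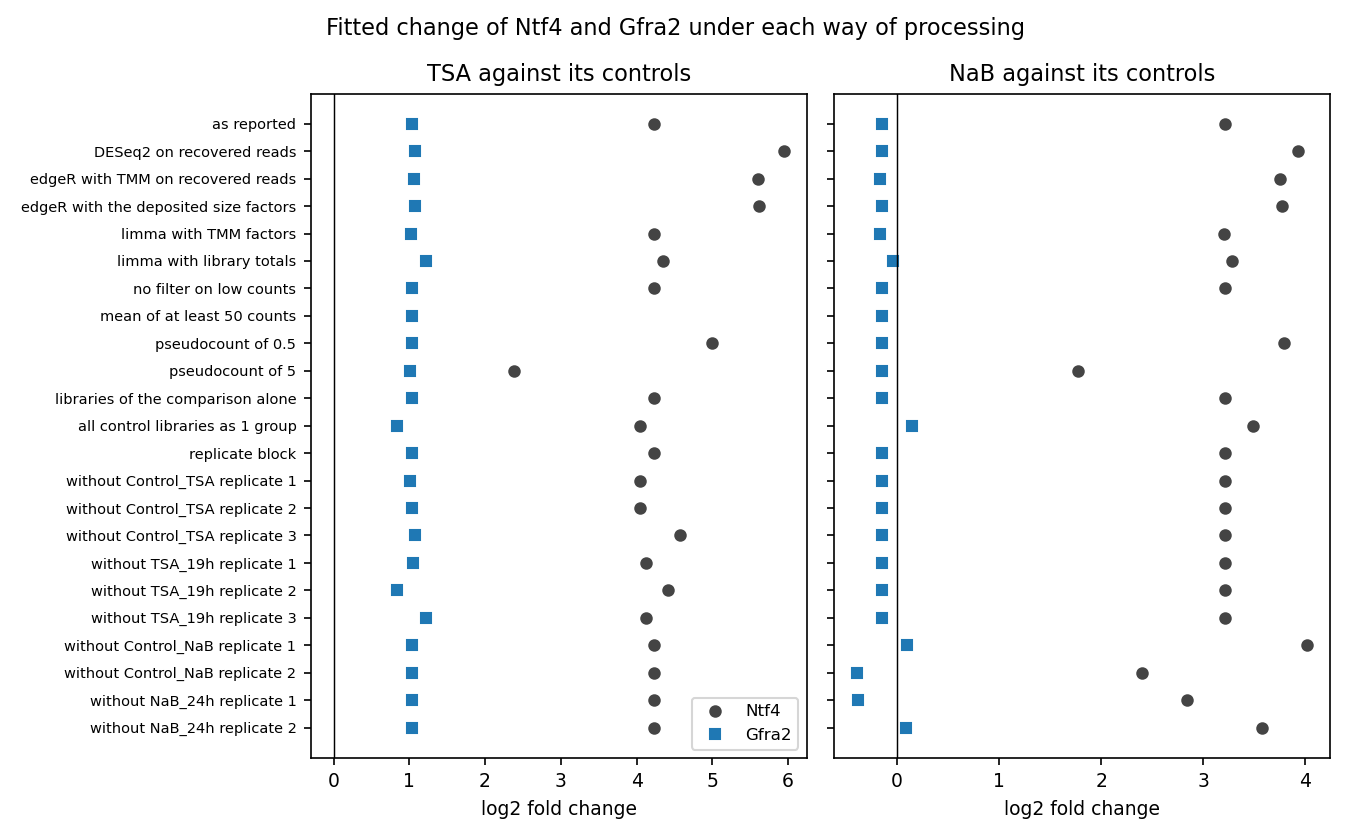
Log2 fold changes (horizontal axes) of Ntf4 (circles) and Gfra2 (squares) with TSA and NaB under each way of processing (vertical axis), the reported one on top. All values of Ntf4 lie right of 0, with NaB between 1.77 and 4.02, while those of Gfra2 with NaB lie on both sides of 0, from -0.40 to 0.14; a mean of at least 50 counts left Ntf4 out.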

How the data were processed

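The authors mapped the reads to Rnor_6.0 with STAR 2.7.9a, counted them per gene with featureCounts 2.0.1 and divided them by 1 DESeq2 (1.29) size factor per library, so the deposited signal is a normalized read count. Taking the smallest value above 0 of a library as 1 read gave whole reads (within 0.001) for 100% of values. Values were tested with limma 3.58.1 in R 4.3.3, with a trend, in 4 groups, after filterByExpr (edgeR 4.0.16, minimum count 10). DESeq2 1.42.0 and edgeR were run on the recovered reads (edgeR with the deposited size factors was added after seeing the data). Fits were also run on simulated data without an effect of the pairs, and the outcome is not reported here.

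Paired cultures shared a plate according to the study. Pairs were taken from the numbers in the titles (TSA) and from consecutive library names (NaB), and paired libraries deviated together (r = 0.284, 0.392 and 0.314 for TSA, and 0.342 for NaB). With 2 libraries per NaB group, both NaB pairs must give the same r, so it is no agreement between pairs. Between libraries of 1 group, chi-square per degree of freedom was 8.17 to 31.6, above counting noise, and the study describes its cultures as separate biological replicates.

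Identifiers were paired with 1909 symbols from the study's table, whose fold changes and p-values were not used. The Ntf4 promoter and neighbours came from RefSeq (GRCr8). Members and lists were chosen with earlier results of these data known. Named are Ntf4, up to 3 genes per pathway list called with both drugs, and the 3 genes most like Ntf4; Cadps2, Junb, Gfra2, Kcna7 and the markers were added after their values were seen. Results for some listed genes are not reported here, and the counts leave these genes out.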

Additional observations from a re-analysis of the deposited data

How the results depend on the processing

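Ntf4 with NaB kept its direction and call, and with TSA its direction, in every alternative that could be fitted. With NaB its log2 change ran from 1.77 with a pseudocount of 5 to 4.02 without the first control library for NaB. With TSA it ran from 2.39 with a pseudocount of 5 to 5.95 with DESeq2. A mean of at least 50 counts left Ntf4 out. It was named from upregulated genes and passed the filter through its treated groups alone, so a kept call is no independent support. The replicate block kept these calls, with Ntf4 at 3.21 with NaB. Among the genes named, it changed that of Gfra2 between the drugs (-1.19), with Col1a1 with NaB, a description, set aside. The counts called with TSA and NaB stayed within 1.5 times. Genes called for the difference between the drugs numbered 47, but 255 with DESeq2, 71 with library totals, 31 without a filter, 422 with all controls as 1 group, 404 with the replicate block and 1 to 45 with a library left out. For the control groups they numbered 243, but 581 with DESeq2, 104 without a filter, 6 with the control libraries alone and 23 to 461 with a library left out. Left-out libraries moved the difference between controls from -0.35 to 1.27 and that between the drugs from -1.83 to -0.21 for Ntf4. Gfra2 with NaB was 0.14 with all controls as 1 group and -0.40 to 0.10 with a library left out, and Col1a1 with TSA -0.51 to 1.91. Causes were not tested. A lone library of a group was assumed to vary like the others. Ntf4 and Gfra3 had 0 to 3 reads in each control library, which limits the precision of their changes.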
